A study of Mus musculus with 2 samples.

Results

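The nuclear genes for the subunits of the respiratory chain and ATP synthase were followed across 4 conditions in single mouse muscle stem cells, which lie along muscle fibres and rebuild them after injury. Members were the protein-coding symbols of the Nduf, Uqcr, Cox and Atp5 subunit families, the Sdh genes, and Cyc1 and Cycs, chosen by name and not by any measured value. This gave 81 members among 21216 genes. They comprised 33 genes of complex I, 4 of complex II, 9 of complex III, cytochrome c, 17 of complex IV (Ndufa4 and Ndufa4l2 included, since Ndufa4 is now placed in this complex) and 17 of complex V. Ndufa3, Ndufs3, Cox7b2, Cox8b and Cox8c also match the names and were not analysed here.

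The respiratory chain sits in the inner mitochondrial membrane. Complex I takes electrons from NADH and complex II takes them from succinate, ubiquinone carries them to complex III, cytochrome c carries them on to complex IV, and complex IV hands them to oxygen. Complexes I, III and IV pump protons as they work, and complex V (ATP synthase) lets the protons flow back to make ATP. Most subunits are encoded in the nucleus and imported, while a small set of core subunits is encoded in mitochondrial DNA, so each complex but complex II needs both genomes. Quiescent muscle stem cells are known for few mitochondria, and cells on galactose gain little ATP from glycolysis, which makes them lean on respiration.

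Cells were sorted into 384-well plates and their polyadenylated RNA was counted with CEL-Seq2, a method that tags each well and each copied molecule near the 3′ end. Plate 2 held 121 cells cultured for 96 h with 10 mM galactose and 120 cultured for the same time with 5 mM glucose (low glucose). Plate 1 held 113 kept cells cultured for 96 h with 25 mM glucose (high glucose) and 102 freshly isolated cells, which the labels call quiescent. All 3 culture media were DMEM with 1 mM sodium pyruvate, fetal bovine and horse serum, chick embryo extract, bFGF and antibiotics. The labels used here give no strain, age or sex, no genetic change, and no number of animals.

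The deposit holds 1 sample per plate, and each condition occurs in a single sample, shared with the other condition of its plate. No test between conditions was therefore possible, cells were not used as replicates, and no difference below has a replicate check. Counts of a condition were summed into a pool of 2035682 (galactose), 1734279 (low glucose), 887611 (high glucose) or 284109 gene counts (freshly isolated) and scaled to CPM, counts scaled to a common total. A pool ratio is given with an exact 95% interval that covers counting error alone. A gene was called higher or lower where the ratio was at least 1.5 in that direction and the interval left out 1, among genes averaging at least 10 CPM over both pools. High glucose and freshly isolated cells shared a plate, as did galactose and low glucose cells, while any comparison of low glucose or galactose with high glucose runs across plates, so plate and medium cannot be told apart there. Each condition also filled its own 6 plate rows, and the spread over rows is technical.

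All 8 muscle stem cell markers were found, with summed levels of 903 CPM in galactose, 938 CPM in low glucose, 1066 CPM in high glucose and 3675 CPM in freshly isolated cells. Pax7, which marks these cells, was at 66.3, 54.8, 56.3 and 120 CPM in the same order. Cd34 of the same list went the other way, at 257.9, 286.6, 280.5 and 133.8 CPM. Most of the freshly isolated sum came from Sdc4, at 2094 CPM in that pool. Of the 10 mature myofibre markers 4 were found, with a sum of 10.3, 9.23, 22.5 and 35.2 CPM in that order. The fibro-adipogenic list (5 of 10 found) summed to 31.4, 39.2, 141 and 1126 CPM, the smooth muscle and pericyte list (7 of 7) to 62.4, 73.8, 230 and 616 CPM, and the endothelial list (8 of 8) to 4.42, 5.77, 59.7 and 151 CPM, in that order. Of the fibro-adipogenic genes found, Col3a1 had 126 CPM in high glucose and 873 CPM in freshly isolated cells, Dpt 4.51 and 201 CPM, Col1a1 5.63 and 35.2 CPM, and Ly6a 4.51 and 17.6 CPM in those pools, while Dcn had no count in either. The myoblast list (4 of 4) summed to 1266, 1204, 1013 and 2957 CPM in galactose, low glucose, high glucose and freshly isolated cells, most of it from Myod1, which had 705 CPM in high glucose and 2446 CPM in freshly isolated cells. Immune, glial and tenocyte lists stayed at or below 21.1 CPM in each pool, and no erythroid marker was found. Gene counts per spike-in count, a measure of RNA recovered per well, were 51.9, 50.4, 60.2 and 19.6 in galactose, low glucose, high glucose and freshly isolated cells.

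Together the 81 genes made up 8577 CPM in galactose, 8612 CPM in low glucose, 6922 CPM in high glucose and 3773 CPM in freshly isolated cells. The plate rows spanned 8140 to 9296 CPM in galactose, 8216 to 9029 CPM in low glucose, 6789 to 7131 CPM in high glucose and 3220 to 4017 CPM in freshly isolated cells. Rows of galactose and low glucose thus overlapped, those of high glucose lay below both, and those of freshly isolated cells lay lowest. Per 1000 spike-in counts the members gave 445 counts in galactose, 434 in low glucose, 417 in high glucose and 74.1 in the freshly isolated pool, so on that scale the cultured pools differed little and the uncultured pool stood far below them.

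**Figure D1:**
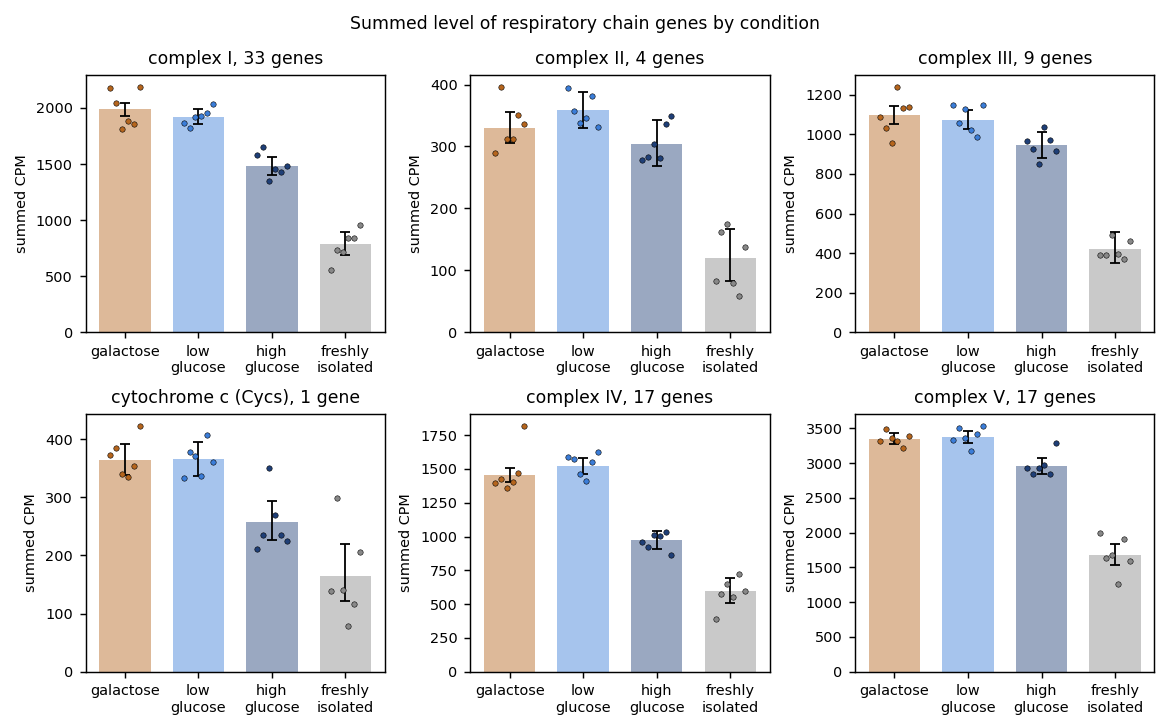
Summed level (CPM) of the members of each complex in galactose, low glucose, high glucose and freshly isolated pools. Bars are pools, black lines exact Poisson 95% intervals of the pool (counting error only), and points the 6 plate rows of each condition; complex I stood at 1986, 1922, 1480 and 788 CPM, and complex IV at 1453, 1523, 974 and 595 CPM, in that order.

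In high glucose against freshly isolated cells, subunit genes of all complexes made up a larger share of the counts. The summed level was 6922 CPM in high glucose and 3773 CPM in freshly isolated cells, a ratio of 1.83 (1.72 to 1.96). Of the 81 members 68 were abundant enough to be read, of which 34 were called higher, 1 lower and 33 neither. Over all 8882 genes read, 21.7% were called higher and 13.4% lower. The members' median log2 ratio was 0.96, against 0.34 over all genes read, and 0.94 with members at 0 counts set to their bound. Where both pools held at least 10 CPM, so that no member entered through its higher pool alone, 30 of 62 members and 20.8% of 7524 genes were called higher. The muscle stem cell, myoblast, fibro-adipogenic, smooth muscle and endothelial lists and the RNA per spike-in count above moved with this contrast, and their part in it was not tested. Without the wells that held 3 or more markers of another cell type the ratio was 1.84. In freshly isolated cells, 5 wells reached that number on the fibro-adipogenic list and 9 on the smooth muscle and pericyte list. Yet 72 freshly isolated cells held Col3a1 counts, and cells with fewer than 3 markers of a list stayed in. With 2 immune, 1 tenocyte and 0 erythroid markers found, no well could reach the limit for those types. The part of other cell types thus remained untested by this filter.

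The size of this difference depended on the scaling, though not its direction. With TMM factors, which set the bulk of genes level, the ratio of the sums was 1.54 and 22 of 67 members were called higher, with 13.9% of all genes called higher and 17.97% lower. With median-of-ratios factors the ratio was 1.502 and 19 of 67 members were called higher, with 12.7% of all genes higher and 18.4% lower. Scaled to spike-in counts the ratio was 5.63 and 66 of 68 members were called higher, as were 82.8% of all genes. These scalings moved the median of all genes by -0.25, -0.29 and 1.62 on the log2 scale. On spike-in counts every ratio of this comparison is multiplied by the ratio of 60.2 to 19.6 given above, so genes called lower by less than that turn round.

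Complex I, the largest member group, summed to 1480 CPM in high glucose and 788 CPM in freshly isolated cells, a ratio of 1.88 (1.63 to 2.17). Of its 29 genes read, 11 were called higher and 1 lower. Its 6 core genes, which include those for the subunits with the flavin and the iron-sulfur clusters, had a ratio of 2.11 (1.56 to 2.90). Its 27 supernumerary genes had 1.81 (1.54 to 2.14). Ndufv2, an iron-sulfur subunit of the NADH-oxidising arm, was at 65.3 and 24.6 CPM in high glucose and freshly isolated cells, a ratio of 2.65 (1.21 to 6.89). Ndufv1, the flavin-bearing partner of Ndufv2, had 98.0 CPM in high glucose and 70.4 CPM in freshly isolated cells, and its interval of 0.85 to 2.39 did not separate the pools.

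Ndufa9, an accessory subunit at the junction of the matrix and membrane arms, had 76.6 CPM in high glucose and 14.1 CPM in freshly isolated cells, a ratio of 5.44 (2.03 to 20.5). That wide interval rests on 4 counts in the freshly isolated pool. The supernumerary genes Ndufb5, Ndufc1 and Ndufa1 had 28.2, 24.8 and 20.3 CPM in high glucose, while the freshly isolated pool held no count of them. With 3 counts of that pool as the limit (10.6 CPM), they were at least 2.67-, 2.35- and 1.92-fold higher. Ndufb2 was the member called lower, with 11.3 CPM in high glucose and 35.2 CPM in freshly isolated cells, a ratio of 0.32 (0.12 to 0.86) from 10 counts in each pool, and 0.98 on spike-in counts. Its call was lost with equal weight per cell and without the wells that held markers of another cell type. Ndufa12 and Ndufc2, among the complex I genes with the most counts, had ratios of 1.08 (0.72 to 1.66) and 1.20 (0.70 to 2.20).

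Complex II, which doubles as an enzyme of the citric acid cycle and has no subunit from mitochondrial DNA, summed to 304 CPM in high glucose and 120 CPM in freshly isolated cells, a ratio of 2.54 (1.78 to 3.75). Sdhd, a membrane anchor, had 105 CPM in high glucose and 28.2 CPM in freshly isolated cells, a ratio of 3.72 (1.81 to 8.87). Its anchor partner Sdhc had 136 CPM in high glucose and 59.8 CPM in freshly isolated cells, a ratio of 2.28 (1.37 to 4.04). Sdhb, the iron-sulfur subunit, had 63.1 and 31.7 CPM in high glucose and freshly isolated cells, and its interval of 0.98 to 4.58 narrowly held 1. Sdha, the flavoprotein that oxidises succinate, was analysed on plate 2 only, with 0 counts in galactose and 3 counts in low glucose.

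Complex III summed to 945 CPM in high glucose and 422 CPM in freshly isolated cells, a ratio of 2.24 (1.85 to 2.73). Its plate rows did not overlap, nor did those of complexes I, II, IV and V. Cyc1, the cytochrome c1 that passes electrons to cytochrome c, had 206 CPM in high glucose and 45.8 CPM in freshly isolated cells, a ratio of 4.51 (2.57 to 8.62). Uqcrc2 and Uqcrc1, the paired core proteins on the matrix side, had ratios of 3.56 (2.19 to 6.12) and 3.15 (1.78 to 6.08). Uqcrfs1, the Rieske iron-sulfur protein, lay just past the limit with 171 CPM in high glucose and 113 CPM in freshly isolated cells, a ratio of 1.52 (1.03 to 2.30). The small subunits were mixed. Uqcrb was called higher at 2.74 (1.25 to 7.11), Uqcrq and Uqcr10 had ratios of 1.34 and 1.07, and Uqcrh, the acidic hinge protein, had 32.7 CPM in high glucose and 56.3 CPM in freshly isolated cells, a ratio of 0.58 (0.30 to 1.14).

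Cycs, the somatic cytochrome c, had 258 CPM in high glucose and 165 CPM in freshly isolated cells, a ratio of 1.56 (1.13 to 2.18). Its plate rows overlapped, at 212 to 351 CPM in high glucose and 79.2 to 299 CPM in freshly isolated cells.

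Complex IV had the smallest ratio among the complexes, 1.64 (1.39 to 1.94), with 974 CPM in high glucose and 595 CPM in freshly isolated cells. That interval overlapped those of complexes I, II, III and V, and differences between complexes were not tested. Ndufa4, a late-joining subunit, had 73.2 CPM in high glucose and 17.6 CPM in freshly isolated cells, a ratio of 4.16 (1.69 to 13.2). Cox7a2, the broadly expressed form of subunit 7a, had 53.0 CPM in high glucose and 14.1 CPM in freshly isolated cells, a ratio of 3.76 (1.38 to 14.4). Cox5b and Cox7b were called higher at 3.07 and 3.04, and Cox6a1 and Cox8a at 1.73 and 1.70. Cox4i1, Cox5a and Cox7a2l, a relative of Cox7a that joins complexes III and IV, were called neither, with ratios of 1.29, 1.12 and 0.92.

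Complex V carried the most counts of any complex, 2960 CPM in high glucose and 1682 CPM in freshly isolated cells, a ratio of 1.76 (1.59 to 1.94). Atp5b and Atp5a1, the beta and alpha subunits that form the catalytic head, had 1097 and 606 CPM in high glucose, against 612 and 394 CPM in freshly isolated cells. The Atp5b ratio was 1.79 (1.52 to 2.12) and that of Atp5a1 was 1.54 (1.25 to 1.90). Atp5j2, a small subunit of the membrane part, had 65.3 CPM in high glucose and 10.6 CPM in freshly isolated cells, a ratio of 6.19 (2.02 to 30.9) that rests on 3 counts in the freshly isolated pool. The 3 genes for the c subunit of the rotor ring, whose mature proteins are the same, differed in pattern. Atp5g1 and Atp5g2 were called higher at 2.32 (1.26 to 4.66) and 2.45 (1.22 to 5.59), while Atp5g3 was at 1.25 (0.89 to 1.80).

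**Figure D2:**
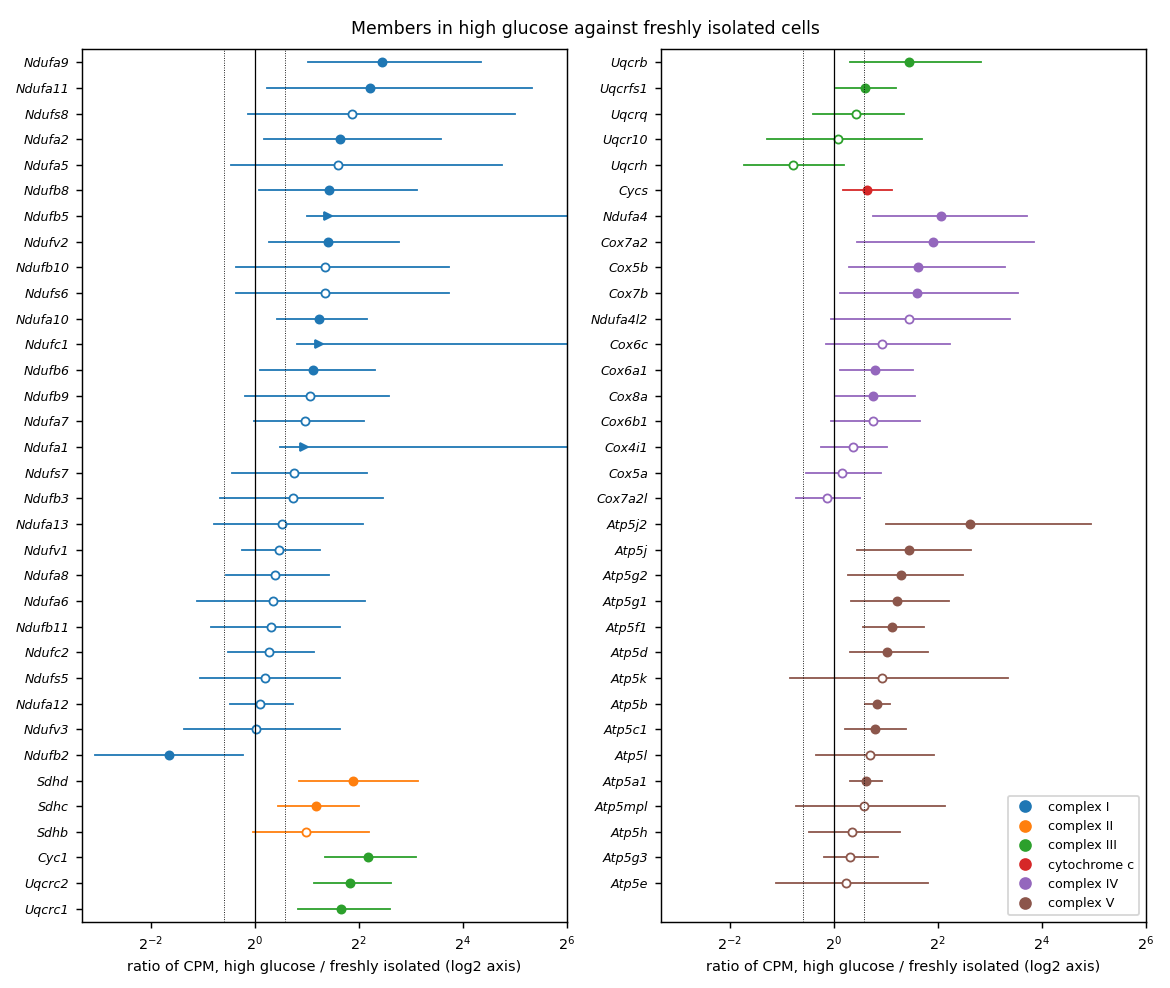
Ratio of CPM, high glucose over freshly isolated (log2 axis), for members read, coloured by complex, with exact 95% intervals for counting error. Filled symbols were called, triangles are lower bounds for Ndufa1, Ndufb5 and Ndufc1 with no count in freshly isolated cells, and dotted lines mark 1.5-fold; Ndufb2 lies alone on the far left.

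Genes from the mitochondrial genome went the other way in CPM. The 11 measured made up 10366 CPM in high glucose and 25603 CPM in freshly isolated cells, with 10 called lower and mt-Nd6 at 1.07 (0.27 to 6.03). This held for partners of the same complexes: mt-Co1, the catalytic core of complex IV, had 1453 CPM in high glucose and 3558 CPM in freshly isolated cells, and mt-Cytb of complex III had 2419 and 6297 CPM in those pools. For each mitochondrially encoded count, the nuclear members gave 0.67 counts in galactose, 0.70 in low glucose, 0.67 in high glucose and 0.15 in the freshly isolated pool. Per 1000 spike-in counts the direction turned for the mitochondrial genes, at 624 counts in high glucose and 503 in the freshly isolated pool. Polyadenylated counts give no rate of transcription for either genome.

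Among related nuclear lists, the mitochondrial ribosomal proteins, which translate the mitochondrially encoded subunits, had 27 of 64 genes called higher and none lower in high glucose against freshly isolated cells, with a median log2 ratio of 1.09. Assembly factors had 8 of 28 called higher and none lower, with a median of 0.76, a share not far from the 21.7% called higher over all genes. They included Uqcc1 and Uqcc2, which help build complex III, with 51.8 and 34.9 CPM in high glucose against 0 and 7.04 CPM in freshly isolated cells. Of 10 regulators of mitochondrial biogenesis read, Tfb2m, a mitochondrial transcription factor, was called higher at 1.78 (1.04 to 3.25). Myc was called lower at 0.66 (0.59 to 0.74), with 1000 CPM in high glucose and 1517 CPM in freshly isolated cells, a direction that turns on spike-in counts. Nrf1, Tfam, Yy1 and Polrmt had ratios of 1.48, 1.37, 1.37 and 1.37 and were called neither. Gabpb1, Sirt1, Pprc1 and Ppard, at 0.96, 0.87, 0.86 and 0.57, were also called neither. The regulators had a median log2 ratio of 0.19, below the 0.34 over all genes read, and their sum had a ratio of 0.82 (0.75 to 0.90), with Myc the most abundant. Carriers were not uniform, since the porin Vdac3 was called higher at 3.57, the phosphate carrier Slc25a3 lower at 0.26, and the ADP/ATP carriers Slc25a4 and Slc25a5 had ratios of 1.08 and 0.95.

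In galactose against low glucose, the comparison made within plate 2, no member was called in either direction. The summed level was 8577 CPM in galactose and 8612 CPM in low glucose, a ratio of 0.996 (0.974 to 1.02). Of 8689 genes read, 1.53% were called higher and 1.25% lower, against 0 of the 72 members read. The members were more abundant, with a median of 85.0 CPM against 44.6 CPM over all genes read. Among genes averaging at least 50 CPM, 0.125% were called higher and 0.175% lower, so the lack of calls sets the members apart little. With 17460 and 14936 member counts in galactose and low glucose, the interval leaves room for a change in the sum of a few percent at most from counting error, while variation between cultures was not measured. Scalings to spike-in counts and to protein-coding genes gave ratios of 1.03 and 0.973, on either side of 1. On spike-in counts complexes II and IV had ratios of 0.95 and 0.98, and the other complexes and Cycs lay between 1.02 and 1.06.

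By complex, the ratios of galactose over low glucose were 1.03 (0.99 to 1.08) for complex I, 0.92 (0.83 to 1.03) for complex II, 1.02 (0.96 to 1.09) for complex III, 0.997 (0.90 to 1.11) for Cycs, 0.954 (0.905 to 1.01) for complex IV and 0.993 (0.959 to 1.03) for complex V. The members' own ratios ran from 0.785 to 1.23. Ndufc2, a membrane-arm subunit of complex I, had 151 CPM in galactose and 124 CPM in low glucose, a ratio of 1.22 (1.02 to 1.45). Atp5d, the delta subunit of the ATP synthase stalk, had 171 CPM in galactose and 146 CPM in low glucose, a ratio of 1.17 (0.99 to 1.38). In the other direction, Ndufa4 had 91.9 CPM in galactose and 117 CPM in low glucose, a ratio of 0.785 (0.64 to 0.96), and Sdhd had 87.0 and 108 CPM in galactose and low glucose, a ratio of 0.806 (0.65 to 0.996). All 4 were short of the 1.5-fold limit.

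**Figure D3:**
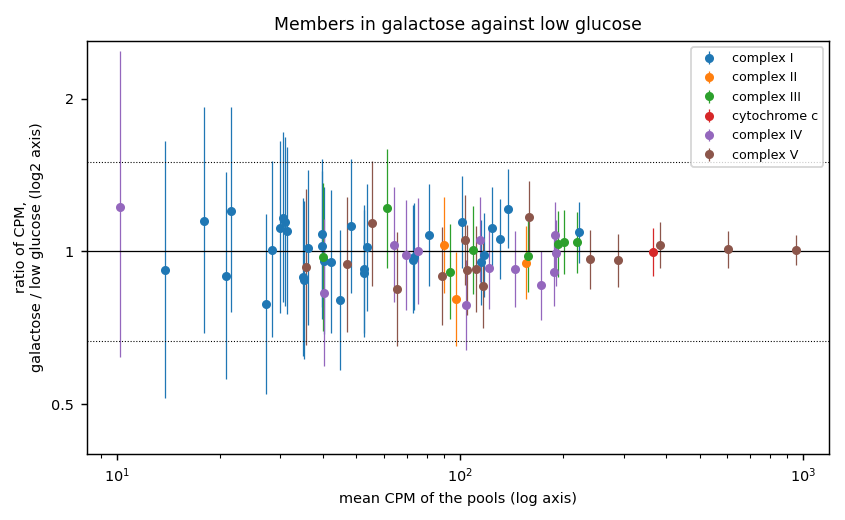
Ratio of CPM, galactose over low glucose (log2 axis), against the mean CPM of the pools (log axis) for the 72 members read, with exact 95% intervals for counting error. Every point lies between the dotted lines at 1.5-fold in either direction, from 0.785 (Ndufa4) to 1.23, and the intervals widen towards low levels.

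In the same comparison the assembly factors had 2 of 35 genes called higher and none lower. Over all genes read, 1.53% were called higher and 1.25% lower, and the related lists are too small to be told apart from those shares. Cox17, a copper chaperone for complex IV, had 40.8 CPM in galactose and 25.9 CPM in low glucose, a ratio of 1.57 (1.08 to 2.31). Foxred1, a complex I assembly factor, had 16.7 CPM in galactose and 7.50 CPM in low glucose. Of 67 mitochondrial ribosomal protein genes 1 was called higher. None of the 11 regulators, 5 carriers or 11 mitochondrially encoded genes read was called, and the mitochondrially encoded genes summed to 12870 CPM in galactose and 12285 CPM in low glucose.

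Low glucose against high glucose, across plates, gave a ratio of the member sums of 1.24 (1.21 to 1.28), with 8612 CPM in low glucose and 6922 CPM in high glucose. Of 71 members read, 21 were called higher and none lower, while 7.98% of 8852 genes were called higher and 10.7% lower. Galactose against high glucose, which shares the high glucose pool, gave 1.24 (1.20 to 1.28), with 19 of 72 members called higher and none lower, while 9.46% of 8894 genes were called higher and 12.1% lower. On spike-in scaling the sums of the members had ratios of 1.04 for low against high glucose and 1.07 for galactose against high glucose, and 7 and 9 members were called higher. That scaling moved the median of all genes by -0.26 and -0.21 on the log2 scale, and TMM factors moved it by 0.10 and 0.12.

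The summed ratios of the complexes differed, and differences between complexes were not tested. For complex IV the sum was 1523 CPM in low glucose and 974 CPM in high glucose, a ratio of 1.56 (1.45 to 1.69), with 6 of 12 genes called higher. Complex I had a ratio of 1.30 (1.22 to 1.38), complex II 1.18 (1.02 to 1.36), complex III 1.14 (1.05 to 1.23), Cycs 1.41 (1.21 to 1.65) and complex V 1.14 (1.09 to 1.19). Plate rows of the low and high glucose pools overlapped for complexes II, III and V and for Cycs. Sums weigh abundant genes most: the median log2 ratio over genes was 0.46 in complex V and 0.32 in complex I. On spike-in scaling complexes I and IV and Cycs kept ratios of 1.09, 1.31 and 1.18, whereas complexes II, III and V lay below 1, at 0.98, 0.95 and 0.95.

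Members of ATP synthase also differed among themselves. Its 5 genes of the F1 head and central stalk summed to 2042 CPM in low glucose and 2047 CPM in high glucose, a ratio of 0.997 (0.94 to 1.06). The 3 c-ring genes summed to 587 CPM in low glucose and 361 CPM in high glucose, a ratio of 1.63 (1.44 to 1.85). On spike-in counts these ratios were 0.83 for the F1 genes and 1.36 for the c ring. Most of that sum came from Atp5g3, with 377 CPM in low glucose and 185 CPM in high glucose, a ratio of 2.04 (1.72 to 2.43). In the F1 part, Atp5b had 948 CPM in low glucose and 1097 CPM in high glucose, a ratio of 0.86 (0.80 to 0.94), and Atp5a1 had 601 and 606 CPM in those pools. Atp5e, the short epsilon subunit of the same stalk, had 51.9 CPM in low glucose and 24.8 CPM in high glucose, a ratio of 2.09 (1.30 to 3.51). Atp5c1, the gamma subunit that turns inside the head, was called higher at 1.61 (1.35 to 1.93). Called higher were thus 2 of the 5 F1 genes and 1 of the 3 c-ring genes, since Atp5g1 and Atp5g2 had ratios of 1.03 (0.79 to 1.35) and 1.41 (1.06 to 1.88). In complex I the core genes had a summed ratio of 1.09 (0.95 to 1.24) and the supernumerary genes 1.37 (1.27 to 1.47).

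In complex IV, Cox6b1, which helps hold the enzyme dimer together, had 197 CPM in low glucose and 89.0 CPM in high glucose, a ratio of 2.21 (1.73 to 2.86). Cox6c had 111 CPM in low glucose and 54.1 CPM in high glucose, a ratio of 2.06 (1.49 to 2.88). In complex I, Ndufs4, an accessory subunit whose loss causes severe complex I deficiency in mice and people, had 28.2 CPM in low glucose and 9.01 CPM in high glucose, a ratio of 3.13 (1.47 to 7.66) from 8 counts in high glucose. Ndufa12, which occupies the same region of the complex, had 212 CPM in low glucose and 122 CPM in high glucose, a ratio of 1.74 (1.40 to 2.18). In complex III, Uqcrh and Uqcrq were called higher at 1.69 (1.11 to 2.66) and 1.53 (1.15 to 2.08), while Uqcrc2 had 197 CPM in low glucose and 225 CPM in high glucose, a ratio of 0.88 (0.73 to 1.05).

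Many of the members called higher in low against high glucose have short transcripts. Across the 71 members read, the log2 ratio had a Spearman correlation of -0.54 with the length of the longest annotated coding transcript. Over 6898 genes it was -0.22, a description across genes that share their pools. In transcripts under 500 bases the median log2 ratio was 0.83 for 4 members and 0.45 for 37 genes in all. In transcripts of 500 to 1000 bases it was 0.46 for 36 members and 0.45 for all genes. It was 0.26 for members of 1000 to 2000 bases against 0.10 for all genes, and 0.16 for 7 members at or above 2000 bases against -0.05. For galactose against high glucose, which shares the high glucose pool, the correlation over members was -0.45. In high glucose against freshly isolated cells it was 0.13 over 68 members and -0.22 over all genes, and members of 1000 to 2000 bases had a median of 1.12 against 0.51 for all genes of that length. In galactose against low glucose, within plate 2, it was 0.18 over 72 members.

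**Figure D4:**
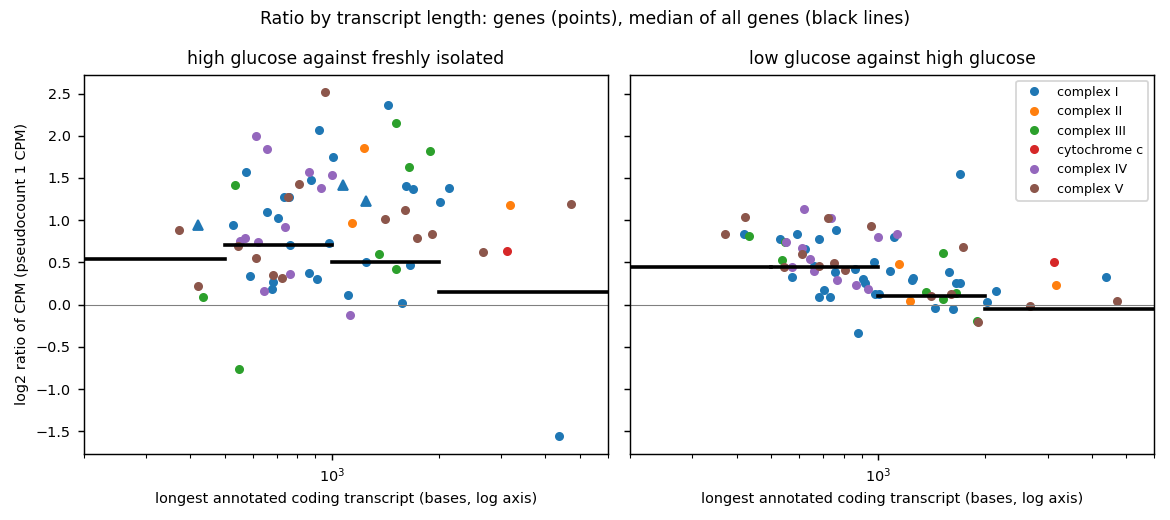
Log2 ratio of CPM (pseudocount 1 CPM) against the longest annotated coding transcript (bases, log axis) for members, coloured by complex; triangles are the lower bounds of the 3 genes with no count in freshly isolated cells, and black lines are medians of all genes in 4 length ranges. In low against high glucose the members fall from a median of 0.83 under 500 bases to 0.16 at or above 2000 bases, and in high glucose against freshly isolated cells they do not fall with length.

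Several subunits exist as alternative isoforms with tissue-bound expression. Of the heart and muscle forms, Cox6a2 and Cox7a1 were analysed on plate 2 only, where Cox6a2 had 0 counts in galactose and 1 in low glucose, and Cox7a1 had 4 counts in galactose and 0 in low glucose. The broadly expressed forms Cox6a1 and Cox7a2 were at 197 and 69.3 CPM in galactose and 182 and 70.4 CPM in low glucose. Cox4i1 had 139, 151, 123 and 95.03 CPM in galactose, low glucose, high glucose and freshly isolated cells. Its lung-enriched partner Cox4i2 and the testis form Cox6b2, on plate 2 only, had 1 and 6 counts in galactose and none in low glucose, where 3 counts would be 1.73 CPM. Ndufa4l2, the hypoxia-induced relative of Ndufa4, had 36.4, 43.8, 38.3 and 14.1 CPM in galactose, low glucose, high glucose and freshly isolated cells.

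Gene counting near 3′ ends limits some members. Of the last 300 bases of the longest coding transcript, at least 50% of 31-base words also occurred in another annotated gene for Ndufs5, Cox7c, Atp5g2, Atp5h and Atp5l, so their counts may be shared or lost. Without these 5 genes the ratios of the sums were 1.84 for high glucose against freshly isolated cells and 1.24 for low against high glucose. Atp5o, the subunit that ties the stalk to the F1 head, had at most 2 counts in any pool, and a second annotated gene of the same symbol overlaps it.

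Single cells of the 4 conditions overlapped while their medians differed. Member counts as a share of a cell's gene counts ran from 0.445% to 1.29% in galactose with a median of 0.849%, and from 0.384% to 1.19% in low glucose with a median of 0.852%. In high glucose the share ran from 0.188% to 1.02% with a median of 0.679%, and in freshly isolated cells from 0.101% to 0.739% with a median of 0.373%. After thinning every cell to 1000 counts, which left out 1 high glucose cell, the medians were 0.8%, 0.9%, 0.6% and 0.4% in the same order, steps of 1 count. Free RNA in a plate well was not measured. Unthinned, a median of 48 members had a count in a galactose cell, 45 in a low glucose cell, 29 in a high glucose cell and 7 in a freshly isolated cell, while median gene counts per cell were 14496, 13371, 6747 and 2536 in that order. Thinned, those medians were 7, 7, 5 and 3.

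**Figure D5:**
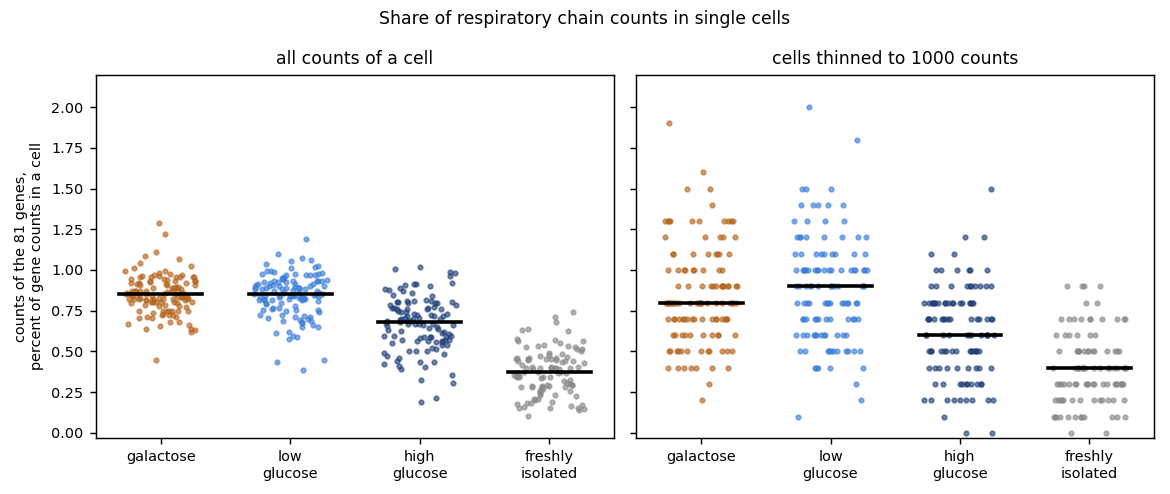
Counts of the 81 genes as a percent of all gene counts in each cell (points), with the median of each condition (black line), before and after thinning cells to 1000 counts. Unthinned medians were 0.849% in galactose, 0.852% in low glucose, 0.679% in high glucose and 0.373% among freshly isolated cells, and single cells of all conditions overlap.

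Promoters of nuclear respiratory genes are known for sites of NRF1, the GABP (NRF2) ETS factor, CREB, YY1 and the ERR receptors. RefSeq promoters (GRCm38.p6) were matched for 65 of the 81 members by symbol or, failing that, by Entrez gene number, on the same chromosome. The genes read, given for comparison, were matched by symbol only. Promoters were searched over the 250 bases before the start, on both strands, for 1 fixed word per factor. The NRF1 word GCGCATGC was found in 9 members (13.8%), against 2.56% of 27025 genes and 5.75% of 5583 genes read in high glucose against freshly isolated cells. The CRE word TGACGTCA was found in 5 members (7.69%), against 1.77% of all genes and 3.39% of the genes read. The ERR word CAAGGTCA was in 4.62% of members against 1.51% and 1.00%, the ETS word CCGGAAGT in 4.62% against 3.23% and 8.26%, and the YY1 word AAGATGGC in 1.54% against 1.83% and 2.42%. The Sp1 word GGGCGG was in 33.8% of members, 35.4% of all genes and 67.4% of the genes read. Words could overlap each other, a word is not a bound site, and 16 members had no promoter in the table.

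The NRF1 word was in 4 of 27 members called higher in high glucose against freshly isolated cells and in 5 of 28 called lower or neither, counts too small to compare. The CRE word was in 4 of 27 and 1 of 28 of the same groups. The CRE word outside the members called higher lies before Ndufb2, the member called lower. The 4 promoters below come from genes of complexes I, V and IV and from cytochrome c. They were chosen among members called higher in high glucose against freshly isolated cells whose promoter held an NRF1, ETS or YY1 word. Matches of any of the 6 words are in capitals, 5′ to 3′ on the strand of the gene. In Cox6a1, as in Ndufa11, the NRF1 word matches on both strands. For 5 members the table lists several promoters and all were searched; of the 2 for Atp5j, the one printed starts inside the annotated gene and the other holds an Sp1 word.

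Ndufa11 (complex I; CRE, then NRF1 on both strands; chr17:56717512-56717761, plus strand): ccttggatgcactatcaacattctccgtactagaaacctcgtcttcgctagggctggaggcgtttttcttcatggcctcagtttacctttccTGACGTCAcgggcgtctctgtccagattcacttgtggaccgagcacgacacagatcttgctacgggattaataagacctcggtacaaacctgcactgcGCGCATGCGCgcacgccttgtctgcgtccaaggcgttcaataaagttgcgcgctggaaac

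Atp5j (complex V; YY1; chr16:84834977-84835226, minus strand): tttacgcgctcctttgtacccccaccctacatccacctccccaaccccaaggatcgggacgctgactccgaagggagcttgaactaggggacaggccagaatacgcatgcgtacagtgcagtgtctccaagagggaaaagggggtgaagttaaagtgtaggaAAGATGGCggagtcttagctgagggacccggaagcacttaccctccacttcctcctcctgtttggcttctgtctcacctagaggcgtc

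Cox6a1 (complex IV; NRF1, then Sp1 on the reverse strand; chr5:115348959-115349208, minus strand): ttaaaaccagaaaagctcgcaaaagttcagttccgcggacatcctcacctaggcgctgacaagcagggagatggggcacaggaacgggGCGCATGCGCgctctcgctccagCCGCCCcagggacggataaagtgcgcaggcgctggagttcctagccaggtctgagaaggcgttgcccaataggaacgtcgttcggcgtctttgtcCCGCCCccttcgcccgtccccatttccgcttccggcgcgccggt

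Cycs (cytochrome c; CRE, then NRF1 on the reverse strand; chr6:50566570-50566819, minus strand): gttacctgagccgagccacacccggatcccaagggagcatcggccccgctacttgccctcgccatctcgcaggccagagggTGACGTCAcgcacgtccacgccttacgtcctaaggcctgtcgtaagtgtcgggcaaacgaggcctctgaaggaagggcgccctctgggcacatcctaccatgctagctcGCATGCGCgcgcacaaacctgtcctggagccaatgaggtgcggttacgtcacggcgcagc

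Of these, Ndufa11, a membrane-arm subunit of complex I, had 32.7 CPM in high glucose and 7.04 CPM in freshly isolated cells, a ratio of 4.64 (1.17 to 40.1). Atp5j, a peripheral stalk subunit, had 86.8 CPM in high glucose and 31.7 CPM in freshly isolated cells, a ratio of 2.74 (1.37 to 6.21). Cox6a1 had 134 CPM in high glucose and 77.4 CPM in freshly isolated cells. Cycs had a ratio of 1.56. That all 4 were called higher in that comparison follows from how they were chosen and says nothing about the words. None was called in low glucose against high glucose.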

How the data were processed

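The deposited tables, 1 per plate, hold whole, unnormalized counts for each gene in each well, as the deposited values show; per the labels, a 6-base UMI marked each molecule. UMI collapse, aligner, counting tool, build and gene models: not given in the sources used here. edgeR appears in the submitters' processing notes, with no version. A deposited well sheet assigned all 457 wells to conditions. Wells with at least 500 counts and 250 genes were kept (456); 1 high glucose well with 8 counts was dropped. The plates reuse a common set of well barcodes (200 occur on both). No doublet caller was run. Symbols came from GENCODE M21 (21132 of 21216 genes; the rest held 0.211% of counts). A gene with a row on 1 plate only (5 members) counted as 0 on the other in sums.

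Counts were pooled per condition and scaled to CPM by total gene counts, spike-ins left out. Ratios carry exact conditional (Clopper-Pearson) 95% intervals and levels exact Poisson ones, for counting error only and unadjusted for the number of genes. Log2 ratios used a pseudocount of 1 CPM, and bounds a floor of 3 counts per pool. The rule was tested on simulated counts with Poisson counting error only, which cannot show how it behaves under variation between cells, cultures or libraries. Members named in full were, per complex, the 3 with the most counts and those called with the interval bound farthest from 1, plus fixed isoform families; a few others (Ndufv1, Ndufv2, the genes at 0 in freshly isolated cells, the promoter examples) were named after their values were seen. A gene the rule selects is not reported here by name, nor drawn among the labelled ratios; it stays in all sums and counts. The members and lists were chosen with earlier results of these data known. Alternatives covered scaling, cell filters, thinning, thresholds and shared sequence. Python 3.11.15, pandas 2.3.3, scipy 1.17.1, R 4.3.3 and edgeR 4.0.16 (TMM factors only) were used.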

Additional observations from a re-analysis of the deposited data

How the results depend on the processing

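The sum over all 81 members kept its direction under each alternative run, except for galactose against low glucose, where it lay on both sides of 1. Single complexes turned below 1 on spike-in counts: complexes II, III and V in low against high glucose (0.98, 0.95, 0.95), and II, III and V in galactose against high glucose (0.94, 0.9998, 0.97). For high glucose against freshly isolated cells the ratio of the sums (1.83) was 1.54 with TMM factors, 1.502 with median-of-ratios factors, 5.63 on spike-in counts, 1.97 on the protein-coding total and 1.57 with cells thinned to 1000 counts; the 34 of 68 members called higher (21.7% of all genes) became 22 of 67 (13.9%), 19 of 67 (12.7%) and 66 of 68 (82.8%) under the first 3, 8 of 63 when thinned (7.75%) and 20 of 31 at a minimum mean of 50 CPM (28.7%). The 1 member called lower became 2 with TMM factors, with median-of-ratios factors and with no condition on the interval, and 0 on spike-in counts, with equal weight per cell, when thinned, without wells with markers of another type and at a minimum of 50 CPM. For galactose against low glucose the ratio of the sums was 1.03 on spike-in counts, 0.973 on the protein-coding total and 0.959 when thinned, which also gave 1 member higher and 2 lower. For low against high glucose the ratio (1.24) was 1.34 with TMM factors, 1.30 with median-of-ratios factors, 1.04 on spike-in counts, 1.20 on the protein-coding total and 1.42 when thinned; the 21 of 71 members higher became 7 of 72 on spike-in counts (2.86% of all genes), 11 of 71 when thinned (2.72%), 13 of 44 at a minimum of 50 CPM (8.83%) and 5 of 71 at a 2-fold limit (2.85%). For galactose against high glucose the ratio (1.24) was 1.34, 1.28, 1.07, 1.17 and 1.37 under those 5 settings in that order, and the 19 of 72 members higher became 9 on spike-in counts (4.12% of all genes), 10 when thinned (2.87%) and 7 at a 2-fold limit (3.54%). The remaining 128 values for the sums and counts stayed within their spread or within 1.5 times, as did 248 values for single members and complexes, while 44 others moved. The alternative without members of shared 3′ ends was chosen after seeing the data. Fewer counts per pool in the thinned data and fewer genes read at the stricter minimum follow from how those settings are built; the cause of the other moves was not tested. No paired analysis was possible because each condition occurs in 1 sample only, without replicates. Depth limits the freshly isolated pool most, where 3 counts are 10.6 CPM.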
